A study of Mus musculus with 12 samples.

Results

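Adipokines are the proteins that fat tissue secretes as signals, and 8 of their genes were examined: Adipoq, Lep, Retn, Nrg4, Apln, Nampt, Angptl4 and Metrnl. They were chosen by name, and each has 1 row among the 31099 genes of the deposited count table. RNA was measured in 12 libraries from cells sorted out of 3-day-old wild-type CD-1 mouse pups, with males and females mixed. The groups, of 3 libraries each, were preadipocytes of the perivascular adipose tissue around the thoracic aorta (PVAT preadipocytes), progenitors of the same tissue (PVAT progenitors), ICAM1+ preadipocytes of inguinal white adipose tissue (IWAT ICAM1+ preadipocytes) and DPP4+ progenitors of that tissue (IWAT DPP4+ progenitors). All came from tissue digested with collagenase D and dispase II and sorted by flow cytometry, and each library holds cells of a pool of mice, so neither single animals nor the sexes can be told apart. Sources used here do not give the surface markers of the PVAT sorts, and a depot difference therefore cannot be told apart from a difference between sort gates.

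Adipokines link the fat store to the rest of the body. Adipoq encodes adiponectin, a fat cell hormone that raises insulin sensitivity; Lep encodes leptin, which reports fat mass to the brain; and Retn encodes resistin, which in mice lowers insulin sensitivity. Nrg4 encodes an EGF-like ligand of ERBB receptors secreted by thermogenic fat, and Apln encodes apelin, a vasoactive peptide that acts through the receptor Aplnr. Nampt encodes the enzyme that limits NAD salvage and is also secreted, Angptl4 an inhibitor of lipoprotein lipase, and Metrnl a secreted meteorin-like factor of muscle, fat and skin. Perivascular fat of the mouse thoracic aorta is known to resemble brown fat, whereas inguinal fat is a white depot.

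The genes lie at separate loci. In build mm10 with GENCODE release M21, Adipoq lies at chr16:23146536-23158028 on the plus strand, Lep at chr6:29060220-29073877 (plus), Retn at chr8:3655770-3660110 (plus) and Nrg4 at chr9:55220222-55326844 (minus). Apln lies at chrX:48025146-48034853 (minus), Nampt at chr12:32819545-32853349 (plus), Angptl4 at chr17:33773750-33781830 (minus) and Metrnl at chr11:121701544-121716306 (plus). The exons of Nrg4 share 8.97% of their length with Fbxo22 and Gm15625 on the opposite strand, and sources used here do not say whether counting used strand, so the Nrg4 count is less certain. The other 7 genes share no exon sequence with another gene.

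The promoters of the 3 classical fat cell hormones are shown because these genes rose between the PVAT stages, as did Nrg4, Nampt and Angptl4. Each sequence is the 250 bases before the RefSeq transcription start (GRCm38.p6), read 5′ to 3′ on the plus strand. Both strands were searched for 4 motifs, and capitals mark a match: TTGCNNAA (C/EBP), AGGTCA (nuclear receptor), ACGTG (hypoxia-inducible factor) and TATAAA.
Adipoq, chr16:23146286-23146535: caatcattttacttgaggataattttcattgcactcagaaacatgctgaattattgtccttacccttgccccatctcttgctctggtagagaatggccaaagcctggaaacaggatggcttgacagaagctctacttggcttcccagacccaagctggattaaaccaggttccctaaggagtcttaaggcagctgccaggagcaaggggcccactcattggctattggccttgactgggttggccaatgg
Lep, chr6:29059971-29060220: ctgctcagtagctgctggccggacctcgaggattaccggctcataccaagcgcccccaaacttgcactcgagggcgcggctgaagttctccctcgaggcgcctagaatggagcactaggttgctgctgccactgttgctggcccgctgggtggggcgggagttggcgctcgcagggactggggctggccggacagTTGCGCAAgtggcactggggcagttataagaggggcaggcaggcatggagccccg
Retn, chr8:3655520-3655769: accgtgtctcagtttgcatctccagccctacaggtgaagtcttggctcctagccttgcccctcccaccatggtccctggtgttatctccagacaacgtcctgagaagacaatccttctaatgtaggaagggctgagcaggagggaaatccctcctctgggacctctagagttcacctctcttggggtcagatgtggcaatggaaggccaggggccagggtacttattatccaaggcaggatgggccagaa
The only match among these 3 windows was TTGCGCAA in Lep, 55 to 48 bases before the start. TTGCNNAA occurs in 9.55% of the 27025 promoter windows of this length, AGGTCA in 13.8%, ACGTG in 16.6% and TATAAA in 13%. A match describes letters only. RefSeq promoters were found for 7 of the 8 genes, all but Angptl4. Among the windows not shown, those of Nrg4 and Nampt held matches to AGGTCA and ACGTG, and those of Apln and Metrnl held no match. The Nrg4 window, chr9:55283626-55283875, belongs to a RefSeq start inside the gene span given above. For Nampt and Metrnl the RefSeq starts used lay 790 and 883 bases downstream of the gene starts given above.

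Levels are counts relative to library size (CPM), scaled by TMM factors, which set libraries of different composition on 1 scale. Total counts per library ran between 15614628 and 25674461. All 8 genes passed the filter on low counts, with 18855 genes tested. Changes are log2 differences ± SE with the adjusted p of edgeR's quasi-likelihood test over all genes tested, called under 0.05. Labels were checked against marker genes: Dpp4 was at 1460 to 1593 CPM in IWAT DPP4+ libraries and at most 97.2 CPM elsewhere, and Icam1 was at 485 to 507 CPM in ICAM1+ libraries and at most 102 elsewhere. PVAT preadipocytes held Icam1 at 30.4 to 52.9 CPM, the mesenchymal marker Pdgfra at 118 to 240 CPM and Pparg, the master regulator of fat cell formation, at 158 ± 53.7 CPM (SD, n = 3). Between the PVAT stages the preadipocyte markers split, with 3 of 8 higher and 4 lower in PVAT preadipocytes. Among all tested genes 16.8% were higher there and 16.1% lower. Icam1 averaged 39.5 CPM in PVAT preadipocytes and 96.0 CPM in PVAT progenitors. Pdgfra averaged 174 CPM in PVAT preadipocytes and 590 CPM in PVAT progenitors, and Dlk1 902 CPM in PVAT preadipocytes and 1691 CPM in PVAT progenitors. Going the other way, Pparg averaged 158 CPM in PVAT preadipocytes and 44.8 CPM in PVAT progenitors. Cd36 averaged 490 CPM in PVAT preadipocytes and 80.8 CPM in PVAT progenitors, and Fabp4 1962 CPM in PVAT preadipocytes and 243 CPM in PVAT progenitors. All 12 mature adipocyte markers were higher in PVAT preadipocytes, so these data go partly against the preadipocyte label, which is kept here as the name of the group. Values of 4 libraries stand apart. Library 1 of the PVAT preadipocytes, the PVAT progenitors and the DPP4+ progenitors did so for adipokines, and DPP4+ library 2 held 5.36 times the neutrophil, 4.03 times the mast cell and 3.19 times the macrophage and monocyte markers of its companions.

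Of the 8 genes, 6 had their highest group mean in PVAT preadipocytes: Adipoq, Lep, Retn, Nrg4, Apln and Nampt. Angptl4 was highest in IWAT ICAM1+ preadipocytes and Metrnl in IWAT DPP4+ progenitors. The order of the 4 group means was the same on the authors' deposited normalized scale for 8 of 8 genes. The plot of levels by library shows each gene on its own axis.

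**Figure D1:**
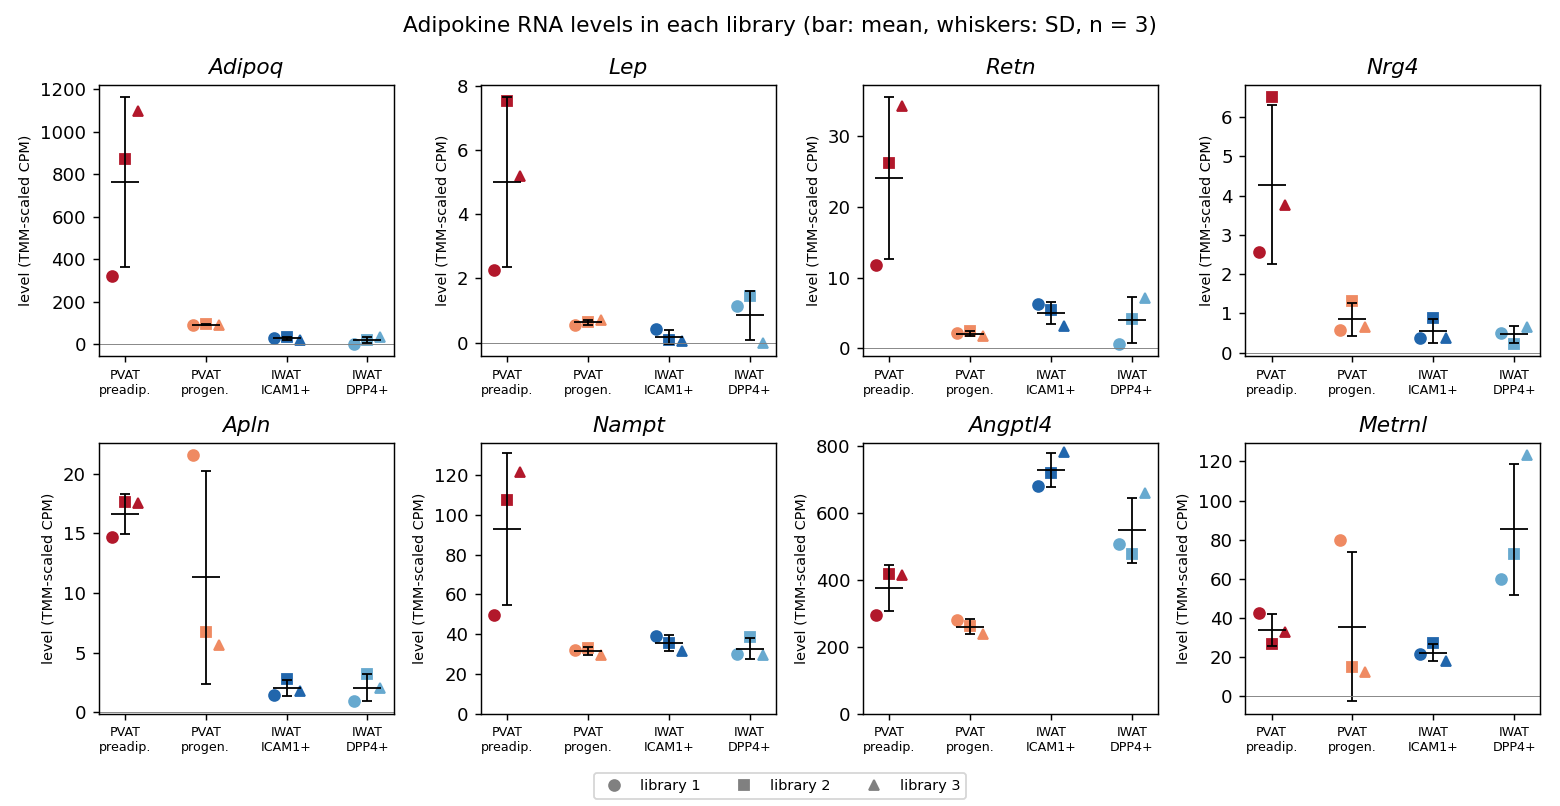
Level of each adipokine gene in TMM-scaled CPM (vertical axis, 1 scale per gene) in the 4 groups (horizontal axis); points are libraries, the bar is the mean and whiskers are the SD (n = 3). PVAT preadipocytes stand above the other groups for Adipoq, Lep, Retn, Nrg4 and Nampt, Angptl4 is higher in both IWAT groups, and PVAT progenitor library 1 stands above its group for Apln and Metrnl.

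Adipoq had 322, 872 and 1095 CPM in PVAT preadipocytes, 90.4, 95.9 and 91.2 CPM in PVAT progenitors, 29.5, 32.6 and 21.2 CPM in IWAT ICAM1+ preadipocytes and 3.79, 22.1 and 33.7 CPM in IWAT DPP4+ progenitors. All PVAT libraries lay above all IWAT libraries, and the 2 IWAT groups overlapped. In PVAT preadipocytes it ranked 81 among the 18855 genes by CPM, with 99.6% below it. In PVAT progenitors it ranked 1689, in ICAM1+ preadipocytes 5451 and in DPP4+ progenitors 6701. The PVAT progenitor libraries agreed closely, with an SD of 2.95 CPM, whereas library 1 of the PVAT preadipocytes was at 0.33 times the mean of the other 2 and library 1 of the DPP4+ progenitors at 0.14 times.

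Lep, the leptin gene, was low throughout. It had 2.26, 7.53 and 5.20 CPM in PVAT preadipocytes (46, 154 and 97 counts), 0.568, 0.633 and 0.703 CPM in PVAT progenitors, 0.429, 0.0774 and 0.0514 CPM in ICAM1+ preadipocytes and 1.14, 1.44 and 0 CPM in DPP4+ progenitors. The PVAT preadipocyte libraries were above all others. The ICAM1+ libraries held 7, 2 and 1 counts and the DPP4+ libraries 16, 19 and 0, so the order of the IWAT groups rests on few reads. Leptin RNA in PVAT progenitors and DPP4+ progenitors overlapped.

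Retn had 11.7, 26.3 and 34.3 CPM in PVAT preadipocytes, 2.17, 2.36 and 1.68 CPM in PVAT progenitors, 6.31, 5.42 and 3.19 CPM in ICAM1+ preadipocytes and 0.643, 4.18 and 7.14 CPM in DPP4+ progenitors. PVAT preadipocytes were separate from every other library, PVAT progenitors lay below every ICAM1+ library, and the DPP4+ libraries spanned both. Nrg4 had 2.56, 6.503 and 3.75 CPM in PVAT preadipocytes, 0.568, 1.32 and 0.649 CPM in PVAT progenitors, 0.368, 0.890 and 0.360 CPM in ICAM1+ preadipocytes and 0.500, 0.228 and 0.656 CPM in DPP4+ progenitors. Only the PVAT preadipocytes separated for Nrg4, and outside that group no library held more than 23 counts.

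Apln, the apelin gene, had 14.7, 17.7 and 17.5 CPM in PVAT preadipocytes, 21.6, 6.74 and 5.63 CPM in PVAT progenitors, 1.47, 2.79 and 1.80 CPM in ICAM1+ preadipocytes and 0.929, 3.19 and 2.05 CPM in DPP4+ progenitors. Every PVAT library was above every IWAT library. PVAT progenitor library 1, at 3.49 times the mean of the other 2, was the highest of all 12.

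Nampt had 49.5, 108 and 122 CPM in PVAT preadipocytes, 32.2, 33.0 and 29.3 CPM in PVAT progenitors, 39.2, 35.8 and 31.5 CPM in ICAM1+ preadipocytes and 29.8, 38.6 and 29.6 CPM in DPP4+ progenitors. PVAT preadipocytes were separate, and the other 3 groups could not be ordered beyond their spread. Angptl4 had 294, 416 and 414 CPM in PVAT preadipocytes, 279, 262 and 236 CPM in PVAT progenitors, 680, 719 and 782 CPM in ICAM1+ preadipocytes and 507, 477 and 658 CPM in DPP4+ progenitors. Its 4 groups did not overlap: ICAM1+ preadipocytes were highest, then DPP4+ progenitors, PVAT preadipocytes and PVAT progenitors.

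Metrnl had 42.6, 26.5 and 32.6 CPM in PVAT preadipocytes, 79.7, 14.8 and 12.2 CPM in PVAT progenitors, 21.4, 27.1 and 18.1 CPM in ICAM1+ preadipocytes and 59.7, 72.7 and 123 CPM in DPP4+ progenitors. DPP4+ progenitors were separate from both preadipocyte groups, but each neighbouring pair in the order of means overlapped. PVAT progenitor library 1 was at 5.90 times the mean of the other 2.

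Levels of different genes were compared per kilobase of exon. In PVAT preadipocytes Adipoq led at a mean of 552.5 CPM per kb, followed by Angptl4 at 105.8, Metrnl at 21.4, Nampt at 18.4 and Retn at 15.3 CPM per kb. In PVAT progenitors Angptl4 at 73.2 and Adipoq at 66.96 CPM per kb led. In both IWAT groups Angptl4 led, at 205.3 CPM per kb in ICAM1+ preadipocytes and 154.7 in DPP4+ progenitors, while Adipoq was at 20.1 CPM per kb in ICAM1+ preadipocytes and 14.4 in DPP4+ progenitors. Lep and Nrg4 were the lowest pair in each of the 4 groups, at most 1.49 CPM per kb.

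Between depots, PVAT preadipocytes held far more adiponectin, leptin, resistin, Nrg4, apelin and Nampt RNA than IWAT ICAM1+ preadipocytes, and less Angptl4. Of the 8 genes 6 were higher and 1 lower, where 44.9% of all tested genes were called (23.5% higher, 21.4% lower). The median log2 difference was 2.60 over the 8 genes and 0.04 over all tested genes. Lep differed by 4.83 ± 0.88 (adjusted p = 0.000879) and Adipoq by 4.78 ± 0.65 (adjusted p = 0.000129), a 27.5-fold higher level. Apln was higher by 3.02 ± 0.52 (adjusted p = 0.00065), Nrg4 by 2.92 ± 0.51 (adjusted p = 0.000651), Retn by 2.28 ± 0.58 (adjusted p = 0.00718) and Nampt by 1.39 ± 0.26 (adjusted p = 0.00123). Angptl4 was the exception, at a log2 difference of -0.96 ± 0.18 (adjusted p = 0.00102). Metrnl overlapped between the groups and was not called (log2 0.61, 95% interval -0.62 to 1.84, adjusted p = 0.397). In 6 genes all PVAT libraries were above all ICAM1+ libraries, as for 29.5% of tested genes, and in Angptl4 all were below, as for 27.8%. These 7 calls held in every alternative that gave a value for the gene.

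Within PVAT, preadipocytes were set against progenitors. Adipoq, Lep, Retn, Nrg4, Nampt and Angptl4 rose, 6 of 8 genes, and none fell, where 32.9% of tested genes were called (16.8% higher, 16.1% lower). The median log2 difference of the 8 genes was 1.95, against -0.05 over all tested genes. Retn rose most, by 3.54 ± 0.63 (11.6-fold, adjusted p = 0.00158), then Adipoq by 3.04 ± 0.60 (adjusted p = 0.00273), Lep by 2.96 ± 0.74 (adjusted p = 0.00994) and Nrg4 by 2.33 ± 0.49 (adjusted p = 0.00399). Nampt rose by 1.56 ± 0.27 (adjusted p = 0.00133). Angptl4 was higher by 0.53 ± 0.18 (adjusted p = 0.0361), a call lost in 12 of the 22 alternatives, with log2 values between 0.43 and 0.56 in those 12: the block, no filter, the 2 groups alone, and the omission of PVAT preadipocyte library 2 or 3, any PVAT progenitor library, any ICAM1+ library or DPP4+ library 1. With the pool as a replicate block the value was 0.51 (adjusted p = 0.0553).

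Apln and Metrnl were not called between the PVAT stages, at log2 0.55 (adjusted p = 0.391) and -0.07 (adjusted p = 0.938), and both turn on PVAT progenitor library 1. Without it Apln was called higher, by 1.37 (adjusted p = 0.00818), and Metrnl was called higher too, by 1.28 (adjusted p = 0.00498), with the sign turned. Relative to the mean of the other 2, that library held 0.88 times the mature adipocyte markers, 0.93 times the interstitial progenitor markers, 0.69 times the mural, 0.59 times the mesothelial, 0.53 times the macrophage and monocyte and 1.68 times the neutrophil markers. The part of these in its high Apln and Metrnl was not tested.

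**Figure D2:**
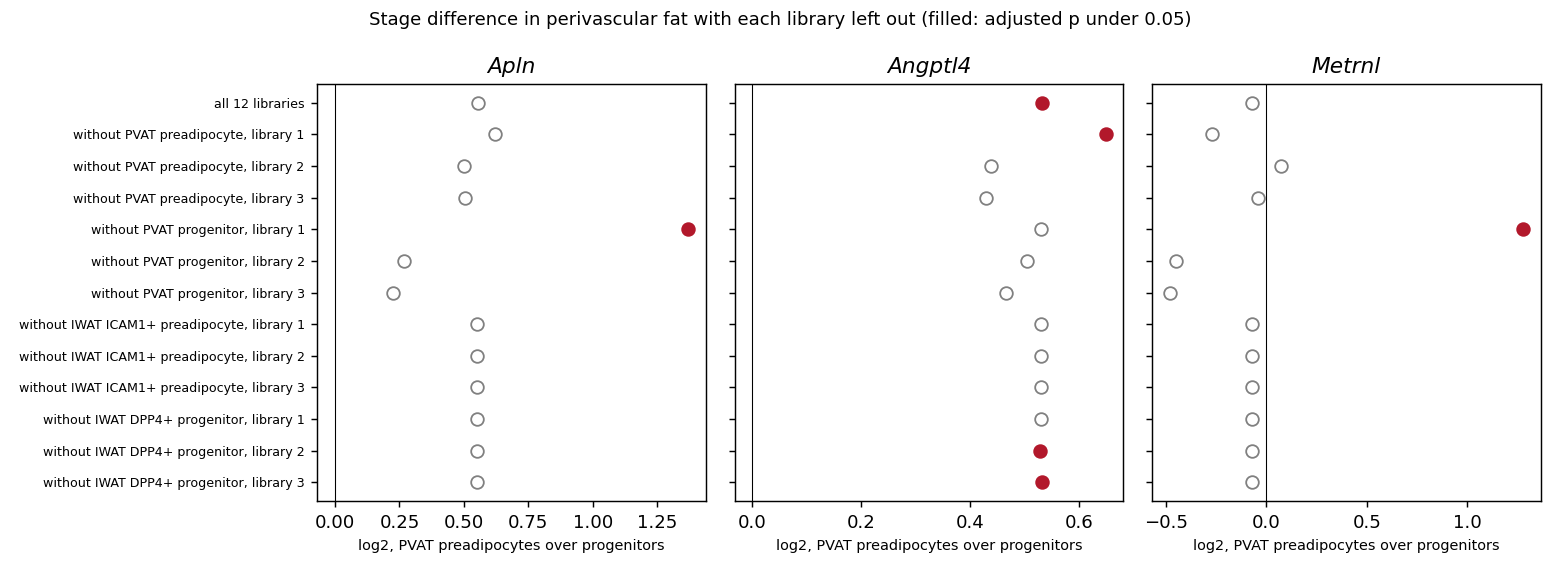
Log2 difference of PVAT preadipocytes over PVAT progenitors (horizontal axis, 1 scale per gene) for Apln, Angptl4 and Metrnl with all 12 libraries (top) and with each library left out in turn; filled points have an adjusted p under 0.05. Apln and Metrnl were called only without PVAT progenitor library 1, at 1.37 and 1.28, while Angptl4 kept its call without PVAT preadipocyte library 1, DPP4+ library 2 or DPP4+ library 3 and lost it in the 9 other omissions.

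Between the progenitors of the depots the pattern was mixed. Adipoq and Apln were higher in PVAT progenitors than in IWAT DPP4+ progenitors and Angptl4 was lower, so 3 of 8 genes were called, where 24.9% of tested genes were called (13% higher, 11.8% lower). The median log2 difference was -0.26 over the 8 genes and 0.05 over all tested genes. Apln was higher by 2.46 ± 0.53 (adjusted p = 0.00433) and Adipoq by 2.22 ± 0.59 (4.67-fold, adjusted p = 0.0144), and Angptl4 differed by -1.08 ± 0.18 (adjusted p = 0.000717). The Adipoq call held in 22 of 22 alternatives, at 1.73 (adjusted p = 0.0146) without DPP4+ library 1 and 2.85 (adjusted p = 0.0103) without DPP4+ library 3. Apln stayed called but was smaller without PVAT progenitor library 1, at 1.59 (adjusted p = 0.00710), and ranged up to 2.94 with DPP4+ library 2 left out.

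Of the 5 other genes, Nampt differed by -0.05 (95% interval -0.62 to 0.52), Lep by -0.46 (-2.23 to 1.31), Retn by -0.93 (-2.28 to 0.41), Nrg4 by 0.87 (-0.41 to 2.14) and Metrnl by -1.26 (-2.49 to -0.03), none past the threshold after adjustment (adjusted p = 0.129 to 0.911). Without PVAT progenitor library 1 Metrnl was called lower in PVAT progenitors, by -2.66 (adjusted p = 4.30e-05). Without DPP4+ library 1, the library with the least Retn, Retn was called lower as well, by -1.44 (adjusted p = 0.0437).

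Within IWAT, ICAM1+ preadipocytes and DPP4+ progenitors differed for 1 of 8 genes, Metrnl, where 17.9% of tested genes were called (9.34% higher, 8.61% lower). The median log2 difference was 0.20 over the 8 genes and 0.02 over all tested genes. Metrnl was lower in the preadipocytes by -1.94 ± 0.58 (adjusted p = 0.0353), with every ICAM1+ library below every DPP4+ library, as for 21% of tested genes. That call was lost in 6 of 22 alternatives, with log2 values between -2.10 and -1.55 and adjusted p up to 0.130, among them 5 omissions of 1 IWAT library (ICAM1+ library 1, 2 or 3 and DPP4+ library 2 or 3).

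The fat cell hormones did not pass the test between the IWAT stages. Adipoq differed by 0.49 (95% interval -0.74 to 1.72; -0.00 to 1.11 with 1 library left out), Retn by 0.33 (-0.95 to 1.61), Nrg4 by 0.28 (-1.02 to 1.58) and Nampt by 0.12 (-0.45 to 0.69), with adjusted p between 0.634 and 0.823. These intervals include changes of more than 1 log2 unit for Adipoq, Retn and Nrg4, and Adipoq was called higher in ICAM1+ preadipocytes with limma-voom quality weights, at 1.40 (adjusted p = 0.0361). Angptl4 was above DPP4+ progenitors in every ICAM1+ library, by 0.41 ± 0.18 (adjusted p = 0.140), and was called in 5 of 22 alternatives, among them the omission of PVAT preadipocyte library 1 (0.41). Lep stood at -2.33 ± 0.96 (adjusted p = 0.124) on few reads, and was called lower in 3 of 20 alternatives, among them the omission of DPP4+ library 3, which had no Lep count, at -2.88 (adjusted p = 0.0214).

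**Figure D3:**
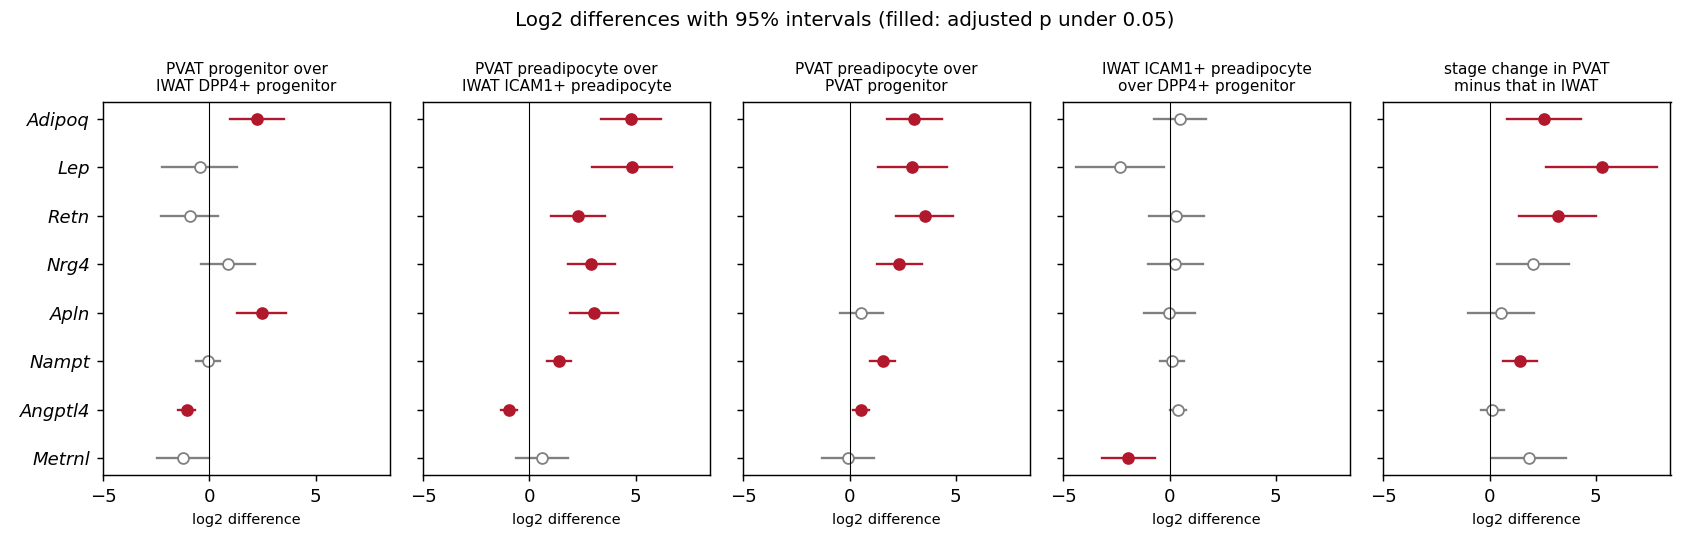
Log2 difference (horizontal axis) with its 95% interval for each adipokine gene (rows) in the 4 group comparisons and in the difference of the stage changes between depots; filled points have an adjusted p under 0.05. Between the PVAT stages 6 genes are called, all to the right of 0, and between the IWAT stages only Metrnl is called, to the left.

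The stage change in PVAT minus that in IWAT was tested directly. It was positive for Retn at 3.21 ± 0.85 (adjusted p = 0.0246), Adipoq at 2.56 ± 0.80 (adjusted p = 0.0498) and Nampt at 1.44 ± 0.37 (adjusted p = 0.0224). Lep was called as well, at 5.29 ± 1.21 (adjusted p = 0.0125), but this sets a PVAT change of 2.96 against an uncalled IWAT change of -2.33 that rests on 7, 2 and 1 counts in ICAM1+ preadipocytes and 16, 19 and 0 counts in DPP4+ progenitors, and it had no value at a minimum count of 50. These are 4 of 8 genes, where 15% of tested genes were called (6.37% positive, 8.66% negative), and the median was 1.96 over the 8 genes and -0.00 over all tested genes. Nrg4 at 2.05 (adjusted p = 0.0969), Metrnl at 1.87 (adjusted p = 0.133), Apln at 0.56 (adjusted p = 0.631) and Angptl4 at 0.12 (adjusted p = 0.770) did not pass. With the pool as a replicate block 2 genes were called, and Adipoq at 2.06 (adjusted p = 0.110) and Retn at 2.84 (adjusted p = 0.0646) were not.

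The Lep difference was called in every alternative that gave a value. Retn was called in 14 of 21 alternatives and was lost without PVAT preadipocyte library 2 or 3, PVAT progenitor library 3, ICAM1+ library 2 or 3, or DPP4+ library 3 (2.48 to 3.27). Nampt was called in 15 and was lost without PVAT preadipocyte library 2 or 3, PVAT progenitor library 3, ICAM1+ library 2 or 3, or DPP4+ library 2 (1.18 to 1.44). Adipoq was called in 9, with values between 1.79 and 3.05, and of the single omissions it was called only without PVAT preadipocyte library 1, PVAT progenitor library 1 or DPP4+ library 1. Without PVAT progenitor library 1 the difference was called for Metrnl, at 3.23 (adjusted p = 0.00011), and without PVAT preadipocyte library 1 for Nrg4, at 2.29 (adjusted p = 0.0452).

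Markers of mature fat cells moved with several of these results. The 12 mature adipocyte markers summed to 4757, 12574 and 13832 CPM in PVAT preadipocytes and 1148 to 1341 CPM in PVAT progenitors. In ICAM1+ preadipocytes they summed to 754 to 877 CPM and in DPP4+ progenitors to 192, 583 and 596 CPM. None of the 12 was without a count in any group, and the most abundant was Car3, a carbonic anhydrase of fat and muscle, in both PVAT groups. Of the 12, 12 were called higher in PVAT preadipocytes than in PVAT progenitors and 10 were called higher there than in ICAM1+ preadipocytes. Among all tested genes 16.8% were higher in the former comparison and 23.5% in the latter.

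The 8 brown adipocyte markers, led by the uncoupling protein gene Ucp1, summed to 155 to 494 CPM in PVAT preadipocytes, 19.0 to 29.3 CPM in PVAT progenitors, 6.97 to 8.02 CPM in ICAM1+ preadipocytes and 5.14 to 9.57 CPM in DPP4+ progenitors. PVAT preadipocyte library 1, the lowest of its group for Adipoq, Lep, Retn, Nrg4 and Nampt, was also lowest for the mature adipocyte sum, at 0.36 times the mean of the other 2, and held 2.70 times their interstitial progenitor markers and 1.52 times their mural markers. DPP4+ library 1, lowest for Adipoq and Retn, held 0.33 times the adipocyte sum of its companions. Markers of other cells also differed between PVAT and ICAM1+ preadipocytes, where 23.5% of all tested genes were higher and 21.4% lower. Lower in PVAT preadipocytes were 5 of 6 mast cell, 5 of 10 macrophage and monocyte, 5 of 5 Schwann and 6 of 8 interstitial progenitor markers. So were 3 of 10 endothelial, 2 of 3 erythroid and 1 of 8 mural markers, while 1 of 8 neutrophil markers was higher. Of 8 mesothelial markers 6 were higher and 2 lower, and of 8 preadipocyte markers 2 were higher and 4 lower. Summed, the Schwann markers were at 17.0 to 27.0 CPM in PVAT preadipocytes and 183 to 208 CPM in ICAM1+ preadipocytes. The part of any of these markers in the adipokine differences was not tested, and in bulk libraries fewer cells of a type cannot be told apart from less RNA per cell.

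Ratios of Adipoq to adipocyte markers depended on the marker chosen. Against the 12-marker sum, Adipoq was at 7.21 ± 0.62% in PVAT preadipocytes and 7.39 ± 0.42% in PVAT progenitors (SD, n = 3), a difference smaller than either SD. Against Plin1, a lipid droplet coat gene, it was at 5.64, 4.90 and 6.96 times in PVAT preadipocytes and 4.93, 12.07 and 12.04 times in PVAT progenitors, so the PVAT groups overlapped with a higher mean in progenitors. Car3 made up 70.2% of the sum in PVAT preadipocytes and 69.2% in PVAT progenitors, whereas Fabp4 led in IWAT with 70.4% in ICAM1+ preadipocytes and 44.9% in DPP4+ progenitors. Shares of the sum are therefore not comparable between depots.

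**Figure D4:**
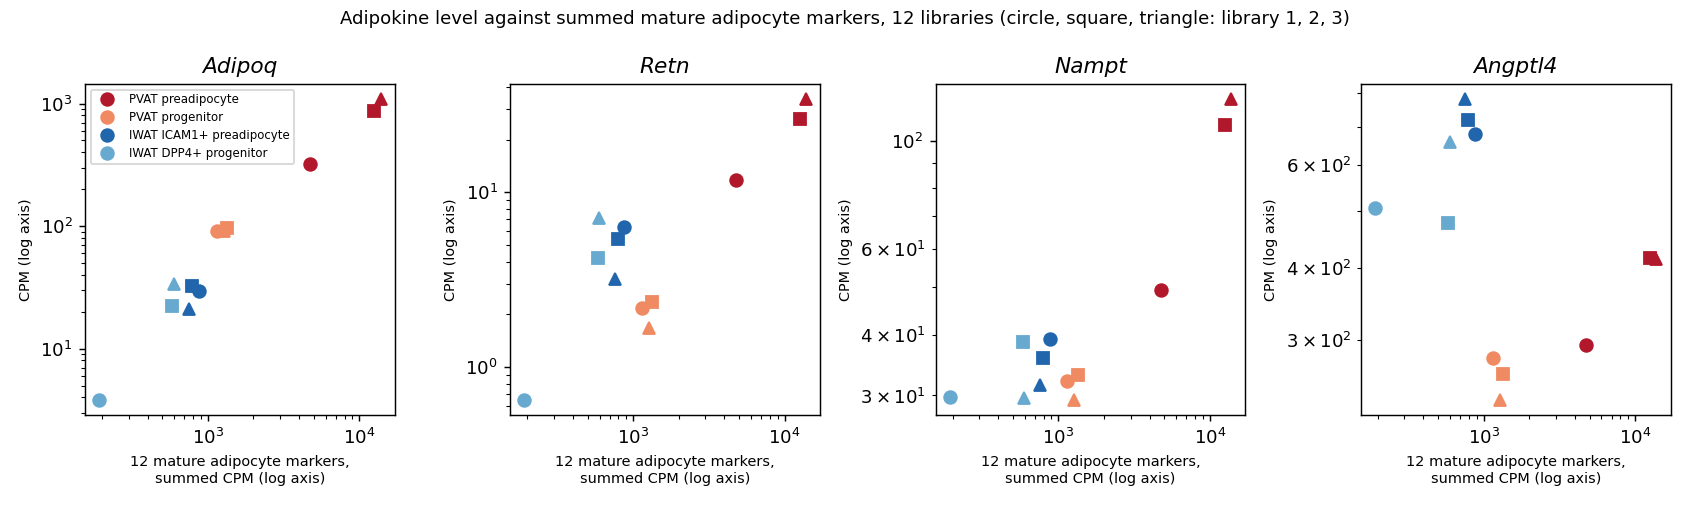
Level of Adipoq, Retn, Nampt and Angptl4 (vertical axis, CPM, log scale) against the summed level of 12 mature adipocyte markers (horizontal axis, CPM, log scale) in the 12 libraries; colours are groups and shapes are library numbers. Adipoq climbs with the marker sum from the IWAT libraries to PVAT progenitors and PVAT preadipocytes. Within IWAT, ICAM1+ libraries have larger sums than DPP4+ libraries 2 and 3 but overlap with them in Adipoq. Retn and Nampt are high only at the PVAT preadipocyte end, and Angptl4 is highest in ICAM1+ libraries with sums of 754 to 877 CPM.

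Across the 12 libraries the log2 CPM of the 8 genes were compared pairwise as a description. Libraries share depth, group and pool, so the values are not independent. Adipoq ran with Apln at r = 0.886, Nrg4 at 0.866, Nampt at 0.811 and Retn at 0.791, and Retn with Nampt at 0.859. Angptl4 ran against Apln at -0.686, Lep at -0.496 and Adipoq at -0.472. Metrnl followed none of the others, with r between -0.217 and 0.174.

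The tested gene most like each adipokine by Pearson's r of log2 CPM over 12 libraries was Naa40 for Adipoq (0.989), Speg for Lep (0.920), B3galt2 for Retn (0.962), Ttpa for Nrg4 (0.973) and Ank for Apln (0.978). It was Bscl2 for Nampt (0.981), Hoxa9 for Angptl4 (0.978) and Wnt11 for Metrnl (0.9747). Bscl2, the seipin gene needed for lipid droplets, had means of 131.5 CPM in PVAT preadipocytes, 55.6 CPM in PVAT progenitors, 58.8 CPM in ICAM1+ preadipocytes and 58.7 CPM in DPP4+ progenitors. Hoxa9, a posterior Hox gene, had 14.0 CPM in PVAT preadipocytes, 7.80 CPM in PVAT progenitors, 32.9 CPM in ICAM1+ preadipocytes and 24.1 CPM in DPP4+ progenitors, the same order as Angptl4. By Spearman's rho the 3 most alike genes were entirely different for Lep, Nampt and Metrnl.

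Receptors and binding partners of adipokines, those of chemerin and retinol-binding protein included, went both ways. Of 18 tested, 3 were higher and 9 lower in PVAT preadipocytes than in ICAM1+ preadipocytes, where 23.5% of all tested genes were higher and 21.4% lower. Between the PVAT stages 1 rose and 4 fell, where 16.8% of all genes rose and 16.1% fell. Adipor2, an adiponectin receptor, had 92.2 ± 39.9 CPM in PVAT preadipocytes, 24.8 ± 11.9 CPM in PVAT progenitors, 14.0 ± 3.31 CPM in ICAM1+ preadipocytes and 11.001 ± 1.20 CPM in DPP4+ progenitors (SD, n = 3). It was higher in PVAT preadipocytes than in ICAM1+ preadipocytes by 2.72 (adjusted p = 0.000146) and than in PVAT progenitors by 1.89 (adjusted p = 0.00246). Adipor1, the other adiponectin receptor, was called in none of the comparisons, which does not show equal levels. It had 96.6 ± 4.49 CPM in PVAT preadipocytes and 65.8 ± 35.5 CPM in PVAT progenitors. In IWAT it had 60.1 ± 4.74 CPM in ICAM1+ preadipocytes and 95.1 ± 10.2 CPM in DPP4+ progenitors.

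Several receptors were lower where their ligand was higher. In PVAT preadipocytes against ICAM1+ preadipocytes, Cdh13, which binds adiponectin at the cell surface, differed by -1.77 (adjusted p = 0.00084), the leptin receptor Lepr by -2.24 (adjusted p = 0.000931) and the apelin receptor Aplnr by -1.83 (adjusted p = 0.0163). Lepr stood at 9.44 ± 5.35 CPM in PVAT preadipocytes and 44.7 ± 9.04 CPM in ICAM1+ preadipocytes. Of the neuregulin receptors, Erbb3 differed by -2.65 (adjusted p = 7.73e-05), while Erbb4, the main receptor of Nrg4, was higher by 3.17 (adjusted p = 0.0236) at 0.881 ± 0.322 CPM in PVAT preadipocytes and 0.0774 ± 0.134 CPM in ICAM1+ preadipocytes, where few reads were counted.

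List counts in PVAT preadipocytes against ICAM1+ preadipocytes stand beside 23.5% of all tested genes higher and 21.4% lower, those between the PVAT stages beside 16.8% and 16.1%, between the IWAT stages beside 9.34% and 8.61% and between the progenitors beside 13% and 11.8%. With all 12 libraries the lipoprotein lipase and NAD lists lay near these shares between PVAT preadipocytes and ICAM1+ preadipocytes. Between the progenitors, 2 of 16 lipoprotein lipase genes were higher in PVAT and 5 were lower, more than that share for the lower genes. Of 24 PPAR target genes of fat cells, 15 were higher and 3 lower in PVAT preadipocytes than in ICAM1+ preadipocytes (median 2.04), and 20 rose and 2 fell between the PVAT stages (median 2.43). Between the IWAT stages 5 rose and 3 fell (median -0.01). This list shares Fabp4, Plin1, Plin4, Cidec, Gpd1 and Pck1 with the mature adipocyte markers and Cidea with the brown adipocyte markers. Its counts are therefore not independent of theirs. Cidea, a lipid droplet protein, was higher in PVAT preadipocytes than in ICAM1+ preadipocytes by 7.54 (adjusted p = 3.92e-06). Among 18 adipocyte transcription factors 11 were higher and 2 lower in PVAT preadipocytes than in ICAM1+ preadipocytes. Pparg itself was higher in preadipocytes in both depots, by 1.82 in PVAT (adjusted p = 0.000492) and by 2.34 in IWAT (adjusted p = 5.31e-05), and Cebpa by 2.35 in PVAT (adjusted p = 0.00338) and 2.10 in IWAT (adjusted p = 0.0264). Pparg had means of 158 CPM in PVAT preadipocytes, 44.8 CPM in PVAT progenitors, 73.2 CPM in ICAM1+ preadipocytes and 14.4 CPM in DPP4+ progenitors. Cebpa had 31.5 CPM in PVAT preadipocytes, 6.16 CPM in PVAT progenitors, 3.09 CPM in ICAM1+ preadipocytes and 0.712 CPM in DPP4+ progenitors. Adipoq, Lep and Retn were called between the stages in PVAT and, apart from the alternatives named above for Adipoq and Lep, not in IWAT. The part of Pparg and Cebpa in the adipokine differences was not tested.

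In the lipoprotein lipase and angiopoietin-like list of 16 genes, 5 were higher and 4 lower in PVAT preadipocytes than in ICAM1+ preadipocytes. Without PVAT progenitor library 1, PVAT preadipocyte library 1 and DPP4+ library 2, 4 were higher and 8 lower. Of 19396 genes tested without these libraries, 5411 were higher and 5515 lower. Lpl, the lipase that Angptl4 inhibits, had 2108 ± 492 CPM in PVAT preadipocytes, 1529 ± 40.0 CPM in PVAT progenitors, 3026 ± 241 CPM in ICAM1+ preadipocytes and 807 ± 81.6 CPM in DPP4+ progenitors. It rose between the IWAT stages by 1.91 (adjusted p = 2.36e-05), and was higher in PVAT progenitors than in DPP4+ progenitors by 0.92 (adjusted p = 0.00316), where Angptl4 was lower. Angptl8, a related inhibitor, was higher in PVAT preadipocytes than in ICAM1+ preadipocytes by 2.88 (adjusted p = 0.00306), and Angptl2, an inflammatory relative, was lower by -2.26 (adjusted p = 0.000617).

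Of the 18 NAD genes around Nampt, 5 were higher and 4 lower in PVAT preadipocytes than in ICAM1+ preadipocytes, and 4 rose and 4 fell between the PVAT stages. Nmnat3, the mitochondrial enzyme that acts after Nampt, was higher in PVAT preadipocytes by 1.41 against ICAM1+ preadipocytes (adjusted p = 0.00131) and by 1.76 against PVAT progenitors (adjusted p = 0.000906). Cd38, which consumes NAD, was lower in PVAT preadipocytes in both comparisons, by -1.35 (adjusted p = 0.00124) and -1.04 (adjusted p = 0.00916). Of 14 neuregulin and ERBB genes 4 were higher and 7 lower in PVAT preadipocytes than in ICAM1+ preadipocytes. Of 9 apelin system genes 3 were higher and 3 lower there, with Mme, a peptidase that cuts apelin, higher by 2.04 (adjusted p = 0.00013) and the angiotensin receptor Agtr1a lower by -3.35 (adjusted p = 1.63e-07).

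Other secreted fat factors went both ways, with more of them lower in PVAT preadipocytes. Of 41 other adipokines and adipose-secreted factors tested, 8 were higher and 22 lower in PVAT preadipocytes than in ICAM1+ preadipocytes (median -0.75), and 7 rose and 15 fell between the PVAT stages (median -0.29). The list name Asip was matched through an alias to Pard3, a different gene that is not a secreted factor, so these counts may include it. Il6, an inflammatory cytokine, had 4.51 ± 0.469 CPM in PVAT preadipocytes and 97.0 ± 11.6 CPM in ICAM1+ preadipocytes (log2 -4.42, adjusted p = 4.55e-08), and the monocyte chemokine Ccl2 differed by -4.12 (adjusted p = 1.26e-07). Early response genes, which tissue digestion can raise, moved the same way: of 22 tested, 1 was higher and 16 lower in PVAT preadipocytes than in ICAM1+ preadipocytes, and their part in the lower Angptl4 was not tested. Cfd, the adipsin gene, rose between the PVAT stages by 6.63 (adjusted p = 0.00154), with 43.1, 93.6 and 90.4 CPM in PVAT preadipocytes and 0.620, 0.461 and 1.19 CPM in PVAT progenitors. Its DPP4+ libraries held 3.71, 112 and 185 CPM, the lowest being library 1, which was also lowest for Adipoq and Retn.

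Hypoxia target genes, among which Angptl4 and leptin are often placed, were described because Angptl4 and Lep parted. Of 20 tested, 7 were higher and 4 lower in PVAT preadipocytes than in ICAM1+ preadipocytes, 1 was higher and 7 lower in PVAT progenitors than in DPP4+ progenitors, and 8 rose and 5 fell between the PVAT stages. Pdk1, a kinase that holds back pyruvate oxidation, was higher in PVAT preadipocytes than in ICAM1+ preadipocytes by 2.09 (adjusted p = 0.000347), whereas Bhlhe40, a transcriptional repressor, differed by -1.92 (adjusted p = 9.83e-06). Of 10 genes for adiponectin folding and secretion 1 was higher and 2 lower in PVAT preadipocytes than in ICAM1+ preadipocytes. Without PVAT progenitor library 1, PVAT preadipocyte library 1 and DPP4+ library 2, 1 was higher and 7 lower. More of all genes were then called as well (10926 against 8467). Of 8 genes of leptin and other receptor feedback, 1 was higher and 4 lower in PVAT preadipocytes than in ICAM1+ preadipocytes with all 12 libraries.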

How the data were processed

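Poly(A) RNA of the 12 libraries was amplified with SMART-Seq v4 (an ultra-low-input kit), per the labels' protocols. The submitters' processing notes name STAR 2.5.2a, mm10 and DESeq2 1.26.0; the counter, annotation and strand setting are not given in sources used here. The authors deposited raw counts per gene, used for all tests, and a normalized signal, the count divided by 1 size factor per library in the deposited table, used only to check the order of group means. Columns were matched to samples by name; the columns called EarlyProg were taken as the PVAT progenitors, the only group whose labels match them. The other deposited table, of transformed values, was not used here.

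Counts were fitted in edgeR 4.0.16 under R 4.3.3 (filterByExpr with a minimum count of 10, TMM, glmQLFit and glmQLFTest, 1 mean per group, all 12 libraries), two-sided, with Benjamini-Hochberg adjustment over 18855 genes and a call under 0.05. SE is the log2 difference divided by the square root of F. Comparisons were PVAT over IWAT, preadipocytes over progenitors, and the difference of the stage changes. Comparisons share groups and are not independent. Log2 CPM for correlations used a prior count of 2. The fit was tested on simulated counts with known changes. Alternatives used DESeq2 1.42.0 and limma 3.58.1 among others. Coordinates and exon lengths are from GENCODE M21, promoters from RefSeq.

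The labels state that same-numbered replicates of the depots come from the same pools of mice, so the number was used as a block in an alternative. Deviations from the group means correlated with a median r of 0.0093 in 18 same-number pairs and 0.00874 in 36 other pairs. The 8 genes and the lists were chosen with earlier results of these data known. Named genes are the 8 adipokines, the 3 genes most alike each by Pearson's r, up to 4 called genes with the largest change per list and comparison, and Adipor1, Adipor2, Cdh13, Lepr, Aplnr, Erbb3, Erbb4, Kit, Pparg and Cebpa. Single libraries are pools and p-values measure the spread between them. CPM near that of a few counts carries counting error that the SD of 3 libraries need not show.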

Additional observations from a re-analysis of the deposited data

Results flagged for a closer look

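For 4 adipokines the stage change differed between the depots by a test of the difference itself. The stage change in PVAT minus that in IWAT was 3.21 for Retn, 2.56 for Adipoq, 1.44 for Nampt and 5.29 for Lep on the log2 scale. With the pool as a replicate block Adipoq (2.06, adjusted p = 0.110) and Retn (2.84, adjusted p = 0.0646) were not called, and leaving out 1 library gave 1 to 5 calls. The Lep value rests on IWAT libraries with 0 to 19 counts each.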

How the results depend on the processing

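Each value was recomputed under 22 alternatives (21 for the difference of stage changes), of which leaving out library 1 of both PVAT groups was chosen after seeing the data. Of 865 values of the 8 genes, 791 kept their side of the threshold, 43 lost a call, 27 gained one and 4 reversed. A reversal is a change of sign in a value called in the main fit or in the alternative. Values called in neither count among the 791 even where their sign changed, as for Apln between the IWAT stages (-0.36 to 0.47). The reversals are Metrnl between the PVAT stages: 0.81 with voom quality weights, 1.06 without 3 libraries (PVAT progenitor 1, PVAT preadipocyte 1 and DPP4+ 2), 1.28 without PVAT progenitor 1 (-0.48 to 1.28 over the 12 single omissions) and 1.10 without both PVAT libraries 1. The cause was not tested.

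Adipokines called between the IWAT stages numbered 1, and 2 with DESeq2, 3 with voom weights, 2 with the 2 groups alone, 3 without both PVAT libraries 1, and 0 to 2 with 1 library left out. In the difference of stage changes they numbered 4, and 2 at a minimum count of 50, 7 without both PVAT libraries 1 and 1 to 5 with 1 library left out. With the pool as a replicate block that number was 2, and the block changed no other call than those given above for Angptl4, Adipoq and Retn. With 1 library left out, 3 to 4 were called between progenitors, 7 between preadipocytes and 5 to 7 between the PVAT stages. Counts of the gene lists and cell markers were also recomputed without the 3 libraries, and several differed from those given above.

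All genes called numbered 4687 between progenitors (7548 with library totals; 3604 to 5761 with 1 library left out) and 8467 between preadipocytes (6615 to 9574). Between the PVAT stages they numbered 6198 (voom weights 10914, without 3 libraries 9893, 2 groups alone 2825, without both PVAT libraries 1 9696; 3916 to 8000). Between the IWAT stages they numbered 3384 (library totals 5276, voom weights 6052, 2 groups alone 5757, without both PVAT libraries 1 5621; 2276 to 4292), and in the difference 2834 (voom weights 8384, without 3 libraries 7783, without both PVAT libraries 1 7720; 1666 to 5231). With library totals instead of TMM the median of all genes was 0.48 between progenitors, 0.27 between preadipocytes, 0.12 and 0.40 between the PVAT and IWAT stages and -0.21 in the difference. The share of calls that were higher was then 83.7% (52.5% with TMM) between progenitors, 66.5% (52.2%) between preadipocytes, 66.3% (51.1%) and 82.6% (52.04%) between the PVAT and IWAT stages and 23.3% (42.4%) in the difference. No call of an adipokine changed sign with library totals, though Metrnl between the IWAT stages and Adipoq in the difference lost theirs. Lep had no value at a minimum count of 50, nor did Lep and Nrg4 with the 2 IWAT groups alone. Lep and Nrg4, with few counts outside PVAT preadipocytes, are limited by depth.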
